A study of Homo sapiens with 6 samples.

Results

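The genes described here are 8 members of the PTPR group, taken by symbol from the 33095 genes in both of the authors' deposited tables: PTPRF, PTPRS, PTPRJ, PTPRA, PTPRE, PTPRK, PTPRC and PTPRCAP. They were chosen with their fold changes in these tables known, so their values are descriptions, and their deposited p-values are quoted only as the authors' calls. The cells were MM.1S (also written MM1.S in the labels), an established myeloma line; myeloma arises from plasma cells, which secrete antibody. In the first arm they carried IRF3 shRNA 1, a short hairpin RNA against the transcription factor IRF3, in the second arm IRF3 shRNA 2, and in the third a scramble control hairpin. All 3 arms were transduced with lentivirus and grown in the same medium, and 2 libraries of poly(A)-selected RNA were sequenced per arm. Whether both libraries of an arm had cultures of their own is not in the labels, so the spread behind each p-value may be technical.

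Receptor-type protein tyrosine phosphatases cross the plasma membrane once and remove phosphate from tyrosines inside the cell, against the work of the tyrosine kinases. Their outer parts bind neighbouring cells, matrix or other receptors, and the inner part holds a single phosphatase domain or a pair, of which the one nearer the membrane usually carries the activity. In blood cells the best known is CD45, encoded by PTPRC, which frees Src family kinases from their inhibitory C-terminal phosphate and acts on JAK kinases. Normal plasma cells lose CD45 as they mature, and myeloma cells vary in it. PTPRCAP is no phosphatase: it encodes a small membrane protein that binds CD45, and the label of a phosphatase family does not describe it.

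The catalytic centre of these enzymes is a short loop: a histidine, the reactive cysteine, any 5 residues and an arginine. Its coding bases are shown because this loop is what the phosphatases among the 8 genes share and PTPRCAP lacks. They come from 1 coding transcript per gene in GENCODE 29 (GRCh38), are written 5′ to 3′ along the transcript, and have the cysteine codon in capitals. The membrane-near match of each gene reads as follows.
PTPRF: cacTGCagcgcgggcgtgggccgc
PTPRS: cacTGCagtgccggtgtgggccgc
PTPRJ: catTGCagtgctggggtcggaagg
PTPRA: cacTGCagtgcaggtgtagggcgt
PTPRE: cacTGTagcgcgggcgtgggccgg
PTPRK: catTGCagtgctggtgctggacga
PTPRC: cacTGCagtgctggtgttgggcgc

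PTPRCAP held no match, PTPRC and PTPRJ held 1, and PTPRF, PTPRS, PTPRA, PTPRE and PTPRK held 2. Among 19687 protein-coding genes searched in the same way, 578 (2.94%) held a match and 26 (0.132%) held 2 or more. In each of the 12 matches of the 7 genes an intron split the run after its 8 leading bases, so that each site is joined only in the spliced transcript. The site of PTPRF shown above, for example, spans chr1:43619195-43619303 on the plus strand. That of PTPRS spans chr19:5212235-5212344 on the minus strand. Between pairs of genes the 24 bases were identical at 15 (PTPRE and PTPRK) to 22 positions (PTPRE and PTPRF).

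Of the 10 plasma cell markers, 9 had means from 1665 (CD38) to 31453 (JCHAIN) normalised read counts in the authors' deposited tables, and CD27 had 22.4. Their summed level was 105364 with shRNA 1, 94564 with shRNA 2 and 143291 in scramble libraries. Of those with an adjusted p, 1 was higher and 6 lower of 9 with shRNA 1, and 1 higher and 7 lower of 10 with shRNA 2, as called in the authors' deposited tables. The background shares were 9.8% up and 14.8% down for shRNA 1, and 10.9% up and 18.1% down for shRNA 2. The shRNA 2 call of MZB1 (adjusted p of 0.0486) failed with the low-gene filter off (0.0934) and after recentring (0.138). The part of these marker changes in the results was not tested. The B cell markers MS4A1, CD22, PAX5, CD79A and BCL6 had means from 3.82 to 32.7 in the authors' deposited tables. Those of 5 T cell markers ran from 4.48 (CD2) to 629.5 (LAT), of 4 myeloid markers from 5.10 (CSF1R) to 88.7 (ITGAM), and of 7 epithelial and stromal markers from 1.92 (DCN) to 36.1 (PDGFRB), in the authors' deposited tables. For IRF3 itself the authors' deposited tables gave log2 fold changes of -1.53 ± 0.10 with shRNA 1 (DESeq2 adjusted p = 8.45e-46) and -0.18 ± 0.10 with shRNA 2 (DESeq2 adjusted p = 0.181; errors are SE). The targeted mRNA was therefore not shown to be lower in the libraries labelled shRNA 2. No single library has a value in the tables used here. Levels per arm are reconstructed means, computed from the mean over all libraries and both fold changes of a gene, and their 95% intervals come from the deposited SEs. Depth per library is unknown.

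PTPRF encodes LAR, an adhesion receptor with immunoglobulin-like and fibronectin-type repeats that acts at cell contacts. It is on chromosome 1, 43525187 to 43623666, plus strand. Its reconstructed mean was 2169 normalised read counts with shRNA 1 (95% interval 1862 to 2527), 1898 with shRNA 2 (1628 to 2212) and 457 in scramble libraries (388 to 538). Both hairpin arms lay far above the scramble arm, with no overlap of their intervals. The log2 fold change was 2.25 ± 0.16 (SE) with shRNA 1 per the authors' deposited table (DESeq2 adjusted p = 6.3e-40), or a ratio of 4.75 (95% interval 3.80 to 5.94). In the libraries labelled shRNA 2 it was 2.05 ± 0.16 (SE) per the authors' deposited table (DESeq2 adjusted p = 1.74e-33), or a ratio of 4.15 (3.32 to 5.20). Among the 12977 genes with a mean of 50 or more, 10 genes had a fold change at least as high as PTPRF with shRNA 1 and 39 with shRNA 2, itself included. The difference between the hairpins, shRNA 2 minus shRNA 1, was -0.19 ± 0.23 (SE), with a 95% interval of -0.65 to 0.26. Both comparisons use the same scramble libraries, so the second value is no independent repeat of the first. LAR is abundant in epithelial cells. The epithelial marker EPCAM had reconstructed means of 29.9 with shRNA 1, 7.18 with shRNA 2 and 14.3 in scramble libraries. In the same order KRT18 had 5.48, 1.87 and 3.50, and CDH1 had 3.75, 3.38 and 2.68. For each of these genes the 95% intervals of all arms overlapped. The summed level of the 7 epithelial and stromal markers was 130, 59.2 and 107, of which PDGFRB, a stromal marker, gave 48.8, 13.0 and 46.6. The summed level of the 4 myeloid markers was 188 with shRNA 1, 112 with shRNA 2 and 41.9 in scramble libraries. ITGAM, an integrin gene, carried it, at log2 fold changes of 2.85 ± 0.44 and 2.03 ± 0.44 (SE) by the authors' deposited tables, while the defining markers CD14 and CSF1R had means of 6.07 and 5.10. The part of such cells in the PTPRF result was not tested.

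**Figure D1:**
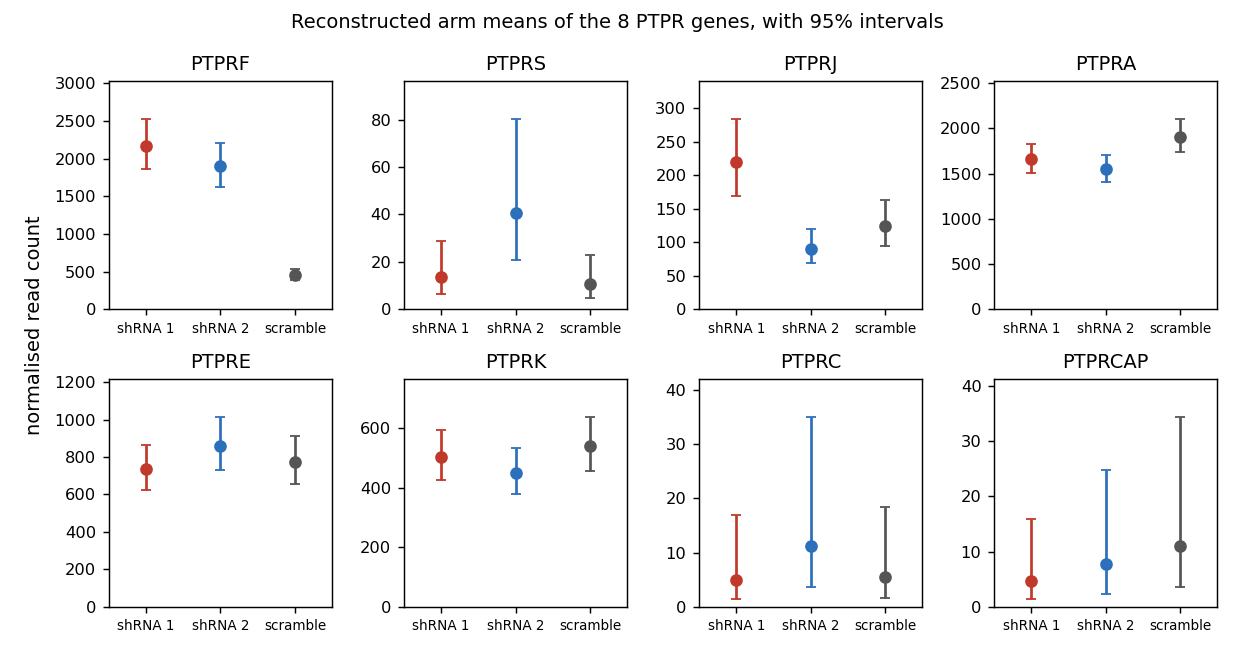
Reconstructed mean normalised read count of each of the 8 genes (y axis, linear from 0, scaled per gene) in the IRF3 shRNA 1, IRF3 shRNA 2 and scramble arms (x axis), with 95% intervals as bars. PTPRF stands at 2169 and 1898 in the hairpin arms and at 457 in scramble, while the intervals of PTPRC and PTPRCAP overlap in all 3 arms.

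PTPRS, on chromosome 19 from 5158495 to 5340803, encodes a close relative of LAR that binds proteoglycans and is best known from neurons. It was barely expressed, at a reconstructed mean of 13.6 normalised read counts with shRNA 1 (6.43 to 28.6), 40.7 with shRNA 2 (20.6 to 80.3) and 10.6 in scramble libraries (4.88 to 22.9). The shRNA 2 arm was the highest, and its interval overlapped those of both other arms. The log2 fold change was 1.94 ± 0.77 (SE) with shRNA 2 per the authors' deposited table, or a 3.85-fold ratio with a 95% interval of 1.35 to 10.9 and a DESeq2 adjusted p of 0.0410. That call was lost without the filter on low genes (adjusted p of 0.0789). With shRNA 1 the value was 0.36 ± 0.78 (SE) by the authors' deposited table, with no adjusted p; its mean of 21.6 lay under 26.8, the lowest mean with one. The difference between the hairpins was 1.58 ± 1.10 (SE), with an interval of -0.56 to 3.73 that includes 0. PTPRF and PTPRS therefore had similar fold changes with shRNA 2 (2.05 and 1.94) at levels per length far apart, at 246 and 6.40 normalised reads per kilobase.

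PTPRJ encodes CD148, a phosphatase of blood and endothelial cells that acts on growth factor receptors and on Src family kinases. It is on chromosome 11, 47980558 to 48170841. Its reconstructed mean was 219 normalised read counts with shRNA 1 (169 to 284), 90.4 with shRNA 2 (68.2 to 120) and 124 in scramble libraries (94.3 to 162). The shRNA 1 arm lay above the other 2 arms, whose intervals overlapped each other. The log2 fold change was 0.82 ± 0.28 (SE) with shRNA 1 per the authors' deposited table (DESeq2 adjusted p = 0.0158), or a ratio of 1.77 (1.21 to 2.57). With shRNA 2 it was -0.45 ± 0.29 (SE) per the authors' deposited table (DESeq2 adjusted p = 0.262), or a ratio of 0.730 (0.493 to 1.08). The difference of -1.28 ± 0.40 (SE) between the hairpins passed a z test (two-sided) over the 12977 genes, with an adjusted p = 0.00784, as did 27% of those genes. PTPRJ was the 1 member that passed, among those with a mean of 50 or more. The members were chosen with both fold changes known, so this adjusted p describes PTPRJ and is no independent test of it. PTPRS, PTPRC and PTPRCAP were under that mean and not in the test.

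PTPRA and PTPRE are close relatives with short outer parts, and PTPRA is a widely expressed activator of Src and Fyn. PTPRA, on chromosome 20 from 2864184 to 3039076, was the most abundant member per length. Its reconstructed mean was 1658 normalised read counts with shRNA 1 (1504 to 1827), 1547 with shRNA 2 (1402 to 1706) and 1909 in scramble libraries (1733 to 2103). Both hairpin arms were below the scramble arm, and the intervals of the shRNA 1 and scramble arms overlapped. The log2 fold change was -0.20 ± 0.10 (SE) with shRNA 1 per the authors' deposited table (DESeq2 adjusted p = 0.134). In the libraries labelled shRNA 2 it was -0.30 ± 0.10 (SE) per the authors' deposited table (DESeq2 adjusted p = 0.0121), or a ratio of 0.810 (0.706 to 0.930). Of the exon bases of PTPRA, 12.5% are shared with VPS16 on the same strand, and reads there cannot be assigned with certainty.

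PTPRE, on chromosome 10 from 127907061 to 128085855, makes both a receptor and a cytosolic form, which the gene totals do not separate. It had reconstructed means of 733 normalised read counts with shRNA 1, 861 with shRNA 2 and 774 in scramble libraries, and all 3 intervals overlapped. Its log2 fold changes were -0.08 ± 0.17 and 0.15 ± 0.17 (SE) by the authors' deposited tables, with DESeq2 adjusted p-values of 0.814 and 0.583. PTPRK encodes a receptor that binds its own kind on neighbouring cells and can dephosphorylate catenins. It is on chromosome 6, 127968779 to 128520674, minus strand, and had reconstructed means of 503 normalised read counts with shRNA 1, 449 with shRNA 2 and 540 in scramble libraries. Its log2 fold changes were -0.10 ± 0.17 and -0.26 ± 0.18 (SE) by the authors' deposited tables, and neither passed. The 95% intervals of these 4 ratios ran from 0.656 at the lowest to 1.40 at the highest bound, so a change of the size seen for PTPRF lies outside all of them.

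PTPRC, on chromosome 1 from 198638457 to 198757476, was near the limit of detection. Its mean was 7.26 normalised read counts in the authors' deposited tables, and the reconstructed means were 4.98 with shRNA 1 (1.46 to 16.9), 11.3 with shRNA 2 (3.64 to 35.0) and 5.51 in scramble libraries (1.65 to 18.5). All 3 intervals overlapped, and in bulk RNA a few cells with CD45 cannot be told apart from little RNA in every cell. The log2 fold changes were -0.15 ± 1.23 and 1.03 ± 1.25 (SE) by the authors' deposited tables, with unadjusted DESeq2 p-values of 0.905 and 0.410. A ratio anywhere from 0.169 to 4.82 with shRNA 1 and from 0.373 to 11.2 with shRNA 2 lay within the 95% intervals, so a change was not detectable at this level. PTPRCAP, on chromosome 11 from 67435510 to 67438067, was as low, at reconstructed means of 4.60 with shRNA 1, 7.71 with shRNA 2 and 11.1 in scramble libraries. Its log2 fold changes were -1.27 (95% interval -3.69 to 1.15) with shRNA 1 and -0.52 (-2.87 to 1.82) with shRNA 2, from the authors' deposited tables. All of its exon bases are also annotated as exons of CORO1B on the same strand, at a mean of 197 in the authors' deposited tables, so its reads cannot be told from those of its neighbour with certainty.

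**Figure D2:**
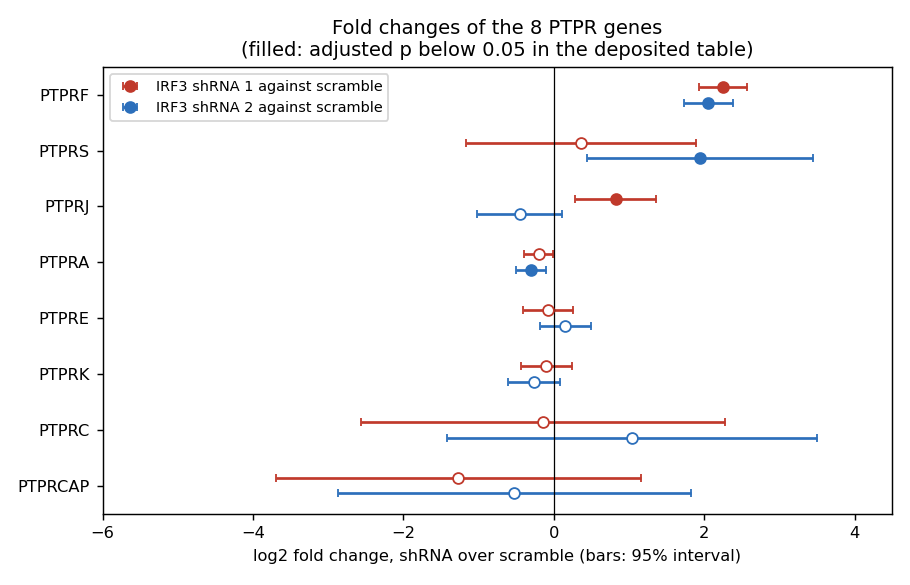
Log2 fold changes of the 8 genes (x axis, shRNA over scramble) with IRF3 shRNA 1 (red) and IRF3 shRNA 2 (blue), as deposited by the authors, with 95% intervals as bars and filled points where the adjusted p is below 0.05. Only the 2 points of PTPRF near 2, PTPRJ with shRNA 1, and PTPRS and PTPRA with shRNA 2 are filled, and PTPRJ is the member whose points lie on opposite sides of 0 with intervals that do not overlap.

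Over the 8 genes, 5 had an adjusted p with shRNA 1, and by the authors' deposited table PTPRF and PTPRJ were the higher ones, with 0 lower. With shRNA 2, 6 had an adjusted p, of which PTPRF and PTPRS were higher and PTPRA lower, per the authors' deposited table. Over all genes with an adjusted p, 24.6% passed with shRNA 1 (9.8% higher) and 29% with shRNA 2 (10.9% higher and 18.1% lower). Since the members were chosen from these contrasts, nothing is read from their share. The median log2 fold change of the members with an adjusted p was -0.08 with shRNA 1 and -0.06 with shRNA 2, beside -0.03 and -0.00261 over all genes with an adjusted p. The change of PTPRF was therefore not shared by the typical member.

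In scramble libraries the order of the members by reconstructed level, in normalised reads per kilobase of the longest annotated transcript, was PTPRA (513), PTPRE (135), PTPRK (88.7), PTPRF (59.1), PTPRJ (15.8), PTPRCAP (8.58), PTPRS (1.66) and PTPRC (1.02). With this length, no interval from PTPRA to PTPRJ overlapped that of the next gene. PTPRJ and PTPRCAP, PTPRCAP and PTPRS, and PTPRS and PTPRC did not differ beyond their intervals. With shRNA 1 the level of PTPRF was 281 and with shRNA 2 it was 246 normalised reads per kilobase, behind PTPRA alone among the members, at 445 and 415.

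**Figure D3:**
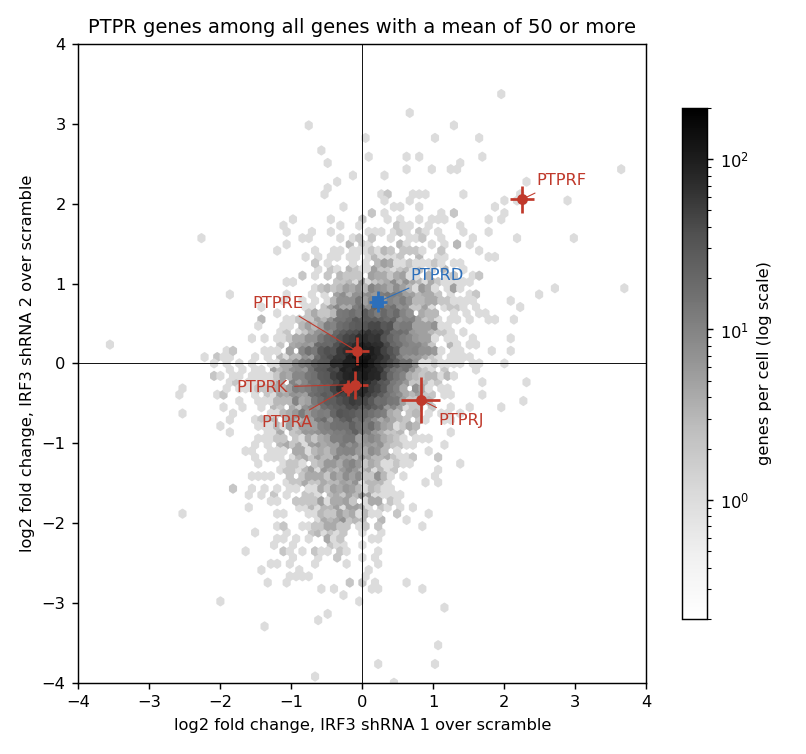
Log2 fold change with IRF3 shRNA 1 (x axis) and IRF3 shRNA 2 (y axis) of the genes with a mean of 50 or more, as grey cells shaded by the number of genes, with 5 PTPR members in red and PTPRD in blue (bars: SE). PTPRF lies far from the bulk at 2.25 and 2.05, PTPRJ lies off its centre at 0.82 and -0.45, and PTPRA, PTPRE and PTPRK lie within it. PTPRS, PTPRC and PTPRCAP, under that mean, and 6 genes outside the axis limits are not drawn.

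The other receptor-type phosphatase genes number 13 in the tables. With shRNA 1, 4 of them had an adjusted p and 0 passed by the authors' DESeq2 test, and 1 had an unadjusted p below 0.05 (PTPRM), per the authors' deposited table. With shRNA 2, 2 of 7 were higher and 0 lower, against 10.9% of all tested genes higher, per the authors' deposited table. PTPRD, the third gene of the LAR branch, had reconstructed means of 1135 normalised read counts with shRNA 1, 1662 with shRNA 2 and 973 in scramble libraries. Its log2 fold change was 0.77 ± 0.13 (SE) with shRNA 2, with a DESeq2 adjusted p of 2.38e-08, and 0.22 ± 0.13 (SE) with shRNA 1, which did not pass, in the authors' deposited tables. PTPRQ, a phosphatase known from the hair cells of the inner ear, was at 2.01 ± 0.72 (SE) with shRNA 2 per the authors' deposited table (DESeq2 adjusted p = 0.0210), at a mean of 25.6. The LAR branch thus held a high call for each of its 3 genes with shRNA 2 and for PTPRF alone with shRNA 1, where PTPRS had no adjusted p. The shRNA 2 call of PTPRS, at a mean of 21.6, failed with the low-gene filter off (adjusted p of 0.0789). PTPRF and PTPRS were also picked with their values known, so no response of the branch is read from these calls.

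Of the rest, PTPRG and PTPRM were well expressed and passed in neither comparison. PTPRG, which can bind contactins, was at 0.04 ± 0.13 and -0.21 ± 0.13 (SE), and PTPRM, a homophilic adhesion receptor like PTPRK, at 0.32 ± 0.16 and 0.36 ± 0.16 (SE) by the authors' deposited tables. PTPRO, at a mean of 73.6, was at 0.16 ± 0.44 and -0.42 ± 0.44 (SE) by the authors' deposited tables. PTPRU, PTPRN2 and PTPRB had means of 23.6, 21.1 and 11.2 and passed in neither, per the authors' deposited tables. The means of PTPRT, PTPRR, PTPRZ1, PTPRN and PTPRH were under 5 normalised read counts.

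**Figure D4:**
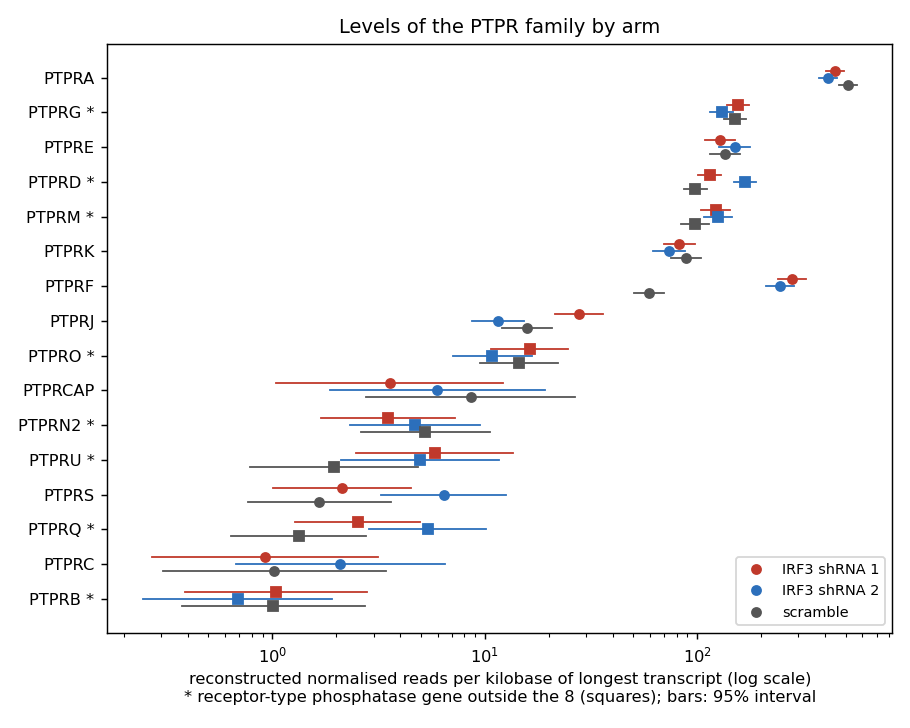
Reconstructed levels of the receptor-type phosphatase genes and PTPRCAP with a mean of 5 or more (x axis, normalised reads per kilobase of longest transcript, log scale) in the IRF3 shRNA 1 (red), IRF3 shRNA 2 (blue) and scramble (grey) arms, with 95% intervals, circles for the 8 members and squares for other family genes. PTPRF moves from the middle of the order in scramble libraries (59.1) to the second place in the hairpin arms (281 and 246).

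Genes known to act with these receptors were taken from lists chosen with earlier results of these data known. Among the partners of the LAR branch and of catenin-linked receptors, the authors' deposited table had 5 of 9 genes higher and 0 lower with shRNA 1, beside 9.8% and 14.8% of all tested genes, with a median log2 fold change of 0.40. With shRNA 2, 3 were higher and 2 lower of 9, beside 10.9% and 18.1% of all tested genes, with a median of 0.07, per the authors' deposited table. The liprin PPFIA4, a scaffold that binds the inner part of LAR, was at 0.95 ± 0.15 and 0.91 ± 0.15 (SE), and CTNNB1, encoding beta-catenin, at 0.87 ± 0.10 and 0.70 ± 0.10 (SE) by the authors' deposited tables. The exchange factor TRIO, which binds the inner part of LAR, was higher with shRNA 1 at 0.40 ± 0.10 and had 0.15 ± 0.10 (SE) with shRNA 2 by the authors' deposited tables. JUP, encoding gamma-catenin, was lower with shRNA 2 at -0.59 ± 0.12 (SE) by the authors' deposited table. The higher call of PPFIBP1 with shRNA 1 was lost without the filter on low genes (adjusted p of 0.0525). The lower call of PPFIA1 with shRNA 2 was lost without that filter (0.0726) and on recentring (0.0804).

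PTPRC, PTPRA and PTPRJ act on Src family kinases. Of 5 of these with an adjusted p, 0 passed with shRNA 1 by the authors' DESeq2 test (2 at an unadjusted p below 0.05), beside 24.6% of all tested genes, per the authors' deposited table. With shRNA 2, 1 of 5 passed (4 at an unadjusted p below 0.05), beside 29% of all tested genes; this was LYN, at 0.39 ± 0.15 (SE), per the authors' deposited table. LCK, the partner of CD45 in T cells, had a mean of 2.46 in the authors' deposited tables. CSK, which adds the inhibitory phosphate that CD45 removes, was higher in both comparisons at 0.30 ± 0.08 and 0.25 ± 0.08 (SE) by the authors' deposited tables. Of a list of CSK, adaptors and ubiquitin ligases, 1 was higher and 3 lower of 8 in each comparison, per the authors' deposited tables. Of all tested genes 14.8% were lower with shRNA 1 and 18.1% with shRNA 2. The medians of the list were -0.21 and 0.01. The adaptor LIME1 was at -0.49 ± 0.10 and -0.33 ± 0.10 (SE) and the ubiquitin ligase CBL at -0.44 ± 0.11 and -0.46 ± 0.11 (SE), while DOK3 was lower with shRNA 1 alone, at -0.90 ± 0.15 (SE), in the authors' deposited tables.

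Of the 4 JAK kinases, 1 was called with shRNA 1, where it was higher, and 3 with shRNA 2, of which 2 were higher, beside 24.6% and 29% of all tested genes called, per the authors' deposited tables. JAK3 was at 1.11 ± 0.15 and 1.43 ± 0.15 (SE) by the authors' deposited tables. JAK1 was higher at 0.60 ± 0.09 and JAK2 lower at -0.69 ± 0.18 (SE) with shRNA 2 by the authors' deposited table. Of the non-receptor phosphatases, 3 were higher and 1 lower of 14 with shRNA 1, and 2 higher and 4 lower of 15 with shRNA 2, beside 24.6% and 29% of all tested genes called, with medians of 0.08 and 0.02, per the authors' deposited tables. PTPN6, encoding the inhibitory phosphatase SHP-1 of blood cells, was at 0.28 ± 0.10 with shRNA 1 and -0.52 ± 0.10 (SE) with shRNA 2 by the authors' deposited tables. Its call with shRNA 1 was lost without the filter on low genes (adjusted p of 0.0646). So were the calls of PTPN22 (adjusted p of 0.109) and PTPN2 (adjusted p of 0.0900) with shRNA 1. PTPN18 was lower with shRNA 2 at -1.23 ± 0.12, PTPN13 was higher with it at 1.58 ± 0.40, and PTPN14 was higher with both at 1.53 ± 0.33 and 1.00 ± 0.34 (SE) by the authors' deposited tables. Of 6 RNA-binding proteins that act on the variable exons of PTPRC, 0 were higher and 2 lower in each comparison, beside 24.6% and 29% of all tested genes called, per the authors' deposited tables. These were CELF2 (-0.28 ± 0.08) and THRAP3 (-0.28 ± 0.09) with shRNA 1, and PTBP1 (-0.42 ± 0.08) and HNRNPL (-0.21 ± 0.07, SE) with shRNA 2 in the authors' deposited tables. The call of HNRNPL was lost on recentring (adjusted p of 0.0708).

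**Figure D5:**
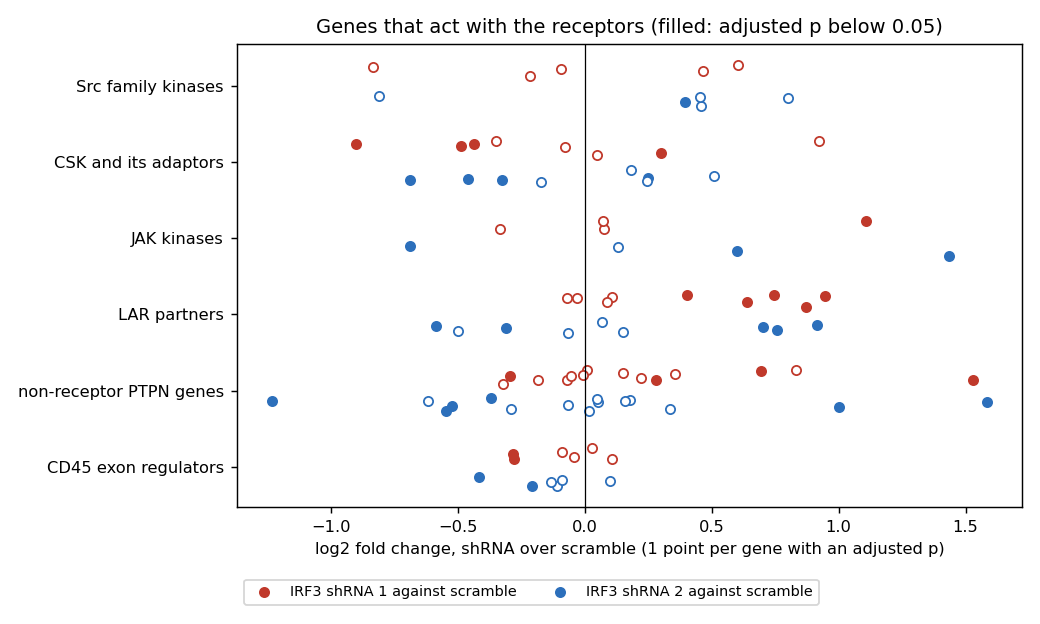
Log2 fold changes (x axis, shRNA over scramble, as deposited) of genes that act with the receptors, 1 point per gene with an adjusted p, with IRF3 shRNA 1 in red above IRF3 shRNA 2 in blue, by list (y axis); points are filled where the adjusted p is below 0.05. The LAR partners hold 5 filled points with shRNA 1, all to the right of 0, and 3 to the right and 2 to the left with shRNA 2. The row labelled CSK and its adaptors also holds ubiquitin ligases.

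The promoters of the members were searched because both hairpins were aimed at an interferon regulatory factor. The response element core (GAAA, any 2 bases, GAAA), which such factors bind, and the composite core (GGAA, any 2 bases, GAAA), a site shared by an ETS factor and an interferon regulatory factor, were looked for on both strands of RefSeq promoters (GRCh38.p14), from 250 bases before to 50 after each gene's start. PTPRJ and PTPRCAP had no promoter in that set and were not searched. Of 10 promoters of 6 members, 1 held the response element core and 0 held the composite core, beside 3.57% and 2.82% of all 35116 promoters. The match was in 1 of the promoters of PTPRE, within the body of the gene, at chr10:127987082-127987111 on the plus strand. Matched bases are in capitals, and the core is on the other strand.
PTPRE: ccttcatttaTTTCCATTTCcagtcctccc
Neither core was in the windows of PTPRF. Of 17 promoters of 10 other family genes, 1 held the composite core, at chr9:8733950-8733979 on the minus strand in a promoter within the body of PTPRD. With 1 further flanking base required, 0 of the 17 held it, and the promoter of PTPRE kept its match.
PTPRD: ttccttttctTTTCTCTTCCtccccgcttt

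The genes with the fold changes nearest to those of PTPRF, by Euclidean distance over the 2 comparisons among 11826 genes with a mean of 50 or more and a unique symbol, were DOK7 (distance 0.06), FRMD1 (0.23) and DMTN (0.24). They were at 2.19 and 2.08, 2.34 and 2.27, and 2.01 and 2.03 in the authors' deposited tables, with means from 50.9 to 67.8, far below PTPRF at 1508. Only DOK7 lay closer to PTPRF than the SE of 0.165 of PTPRF's own fold changes. The SEs of DOK7, FRMD1 and DMTN themselves ran from 0.45 to 0.52, larger than any of these distances. Their order by distance is therefore not told apart, and DOK7 is not singled out. For PTPRC the nearest were LYST, STRC and PHC1, and for PTPRCAP they were KRBA2, N4BP2 and FAM200B. Their likeness cannot be told from that of others, since 6753 and 3947 genes lay closer than the SE of those members' own fold changes.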

How the data were processed

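RNA sequencing of MM.1S cells gave 6 libraries, 2 per arm, grouped by the hairpin that the labels name. The submitters' processing notes name Salmon 0.12.0, DESeq2 1.24.0 and the build GRCh38, also called hg38; of settings, annotation and strand nothing is given in the sources used here. Per the file headers, the 2 deposited tables hold a signal, the mean normalised read count over libraries. They also hold the log2 fold change and its SE, deposited by the authors on the log2 scale. The Wald score deposited by the authors equals their ratio to within 3.27e-07. Deposited p-values and adjusted p-values are the authors' DESeq2 results, and genes with means under 26.8 (shRNA 1) or 11.8 (shRNA 2) carry no adjusted p.

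Calls use a deposited adjusted p below 0.05. Fold changes are shRNA over scramble: dispersions solved from each table, for 643 genes, differed by a median of 0.00408 (absolute natural log) as coded and by 0.0321 to 0.0939 with signs turned. Arm means and intervals assume equal library sizes and 1 dispersion per gene. The z test of the difference took its SE from both squared SEs added, with Benjamini-Hochberg adjustment over genes with a mean of 50 or more. The code of both was run on simulated counts that met these assumptions, so that run could not test the assumptions. The shared scramble libraries make the SE of the z test too large. Coordinates are from GENCODE 29, which holds all 33095 identifiers; python 3.11.15 with scipy 1.17.1 was used.

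Members and gene lists were chosen with earlier results of these data known. Named genes are the members, the other PTPR genes, up to 4 genes per list by lowest adjusted p, neighbours of members and IRF3. The 3 genes nearest to PTPRC and PTPRCAP in both fold changes are named too. PTPRVP, LCK, PTPN2, PTPN3, PTPN22, PPFIBP1, PPFIA1, the single marker genes and the genes nearest to PTPRF were named after their values were seen. Tried as alternatives were other thresholds, a minimum fold change, no filter on low genes, recentring, the SE of the difference, the length used for levels and the motif's flank.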

Additional observations from a re-analysis of the deposited data

Results flagged for a closer look

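Fold changes of the members, the other receptor-type genes, the listed partner genes, IRF3 and the neighbours named here that differed between the 2 hairpins, by the two-sided z test on deposited values with Benjamini-Hochberg adjustment over 12977 genes (27% of which passed), are given here as log2 fold change with shRNA 2 minus that with shRNA 1. Among the members, which were chosen with both fold changes known, this was PTPRJ, at -1.28 ± 0.40 (SE), with an adjusted p of 0.00784. Among the other receptor-type genes it was PTPRD, at 0.55 ± 0.18 (SE), with an adjusted p of 0.0124. Among non-receptor phosphatases, PTPN18 was at -1.05 ± 0.16, PTPN6 at -0.80 ± 0.14, PTPN3 at -0.70 ± 0.23 and PTPN2 at 0.47 ± 0.16 (SE). Among kinases and their adaptors, LYN was at 0.61 ± 0.21, DOK3 at 1.15 ± 0.21 and JAK1 at 0.52 ± 0.13 (SE). Among LAR partners, PPFIBP1 was at -1.14 ± 0.33 and JUP at -0.68 ± 0.16 (SE). PTBP1, of the regulators of the PTPRC exons, was at -0.44 ± 0.12 (SE). Of the neighbours, MKI67 was at -1.78 ± 0.38, CORO1B at 1.21 ± 0.46 and KDM4A at 0.44 ± 0.15 (SE). IRF3 itself was at 1.35 ± 0.15 (SE), with an adjusted p of 2.62e-18. Why the hairpins differ was not tested.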

How the results depend on the processing

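The rise of PTPRF passed under each alternative tried, in both comparisons, and no member changed direction under any of them. At an adjusted p below 0.01, 1 member passed with shRNA 1 and 1 with shRNA 2, PTPRF each time. With a minimum log2 fold change of 0.5, 2002 genes passed with shRNA 1 and 3191 with shRNA 2, and PTPRA lost its call by construction. Without the filter on low genes the adjusted p of PTPRS with shRNA 2 was 0.0789. On recentring on the median gene (-0.04 in both comparisons) PTPRM passed with shRNA 2, with an adjusted p of 0.0488. The difference of PTPRJ kept its call with the SE from reconstructed variances and over every gene. The order of the members by level was the same with merged exons as the length, while the scramble levels per kilobase became 427 for PTPRA, 68.9 for PTPRE, 60.0 for PTPRK and 42.7 for PTPRF. PTPRE and PTPRK thus lay closer to each other, and the separation of intervals is given for the longest transcript only. No paired analysis was possible because the tables used here hold no values of single libraries, and for that reason no library was left out in turn. Low means limit PTPRC, PTPRCAP and PTPRS, whose changes would have to be several-fold to be seen.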

Other observations

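PTPRVP, listed in the tables as a further gene of this family and annotated as a transcribed pseudogene in GENCODE 29, was at 0.48 ± 0.18 (SE) with each hairpin in the authors' deposited tables, with DESeq2 adjusted p-values of 0.0334 and 0.0274, and reconstructed means of 556 with shRNA 1, 557 with shRNA 2 and 399 in scramble libraries. Both calls were lost without the filter on low genes (adjusted p of 0.0756 and 0.0529).

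Some genes that lie beside or overlap the members were also measured. The histone demethylase gene KDM4A lies 26492 bases to the right of PTPRF on chromosome 1. KDM4A was at -0.48 ± 0.11 and -0.04 ± 0.11 (SE) by the authors' deposited tables, with KDM4A called lower with shRNA 1 (DESeq2 adjusted p of 0.000145). MKI67, the gene of the proliferation antigen Ki-67, ends 10804 bases from PTPRE and was at -0.56 ± 0.27 with shRNA 1, without passing, and at -2.33 ± 0.27 (SE) with shRNA 2, by the authors' deposited tables. CORO1B, which overlaps PTPRCAP, was at -0.82 ± 0.33 and 0.39 ± 0.32 (SE) by the authors' deposited tables, without passing. VPS16, which overlaps PTPRA, was at -0.17 ± 0.12 and 0.04 ± 0.12 (SE) by the authors' deposited tables, without passing. NUP160, 132003 bases from PTPRJ, was called lower with shRNA 2, at -0.26 ± 0.10 (SE, DESeq2 adjusted p of 0.0275). RPS6KB2, 102 bases from PTPRCAP, was called higher with shRNA 2, at 0.25 ± 0.10 (SE, DESeq2 adjusted p of 0.0464). Neither passed with shRNA 1, and both calls were lost without the filter on low genes (adjusted p of 0.0530 and 0.0892).

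Among T cell markers, CD3E was at 1.35 ± 0.48 and 0.69 ± 0.48 (SE) by the authors' deposited tables, and LAT at -0.65 ± 0.15 and -0.29 ± 0.14 (SE); each passed with shRNA 1, CD3E as higher and LAT as lower. The call of CD3E was lost without the filter on low genes (adjusted p of 0.0520). The summed level of the 5 T cell markers was 593 with shRNA 1, 708 with shRNA 2 and 819 in scramble libraries. LAT carried this sum and its order, at reconstructed means of 490, 629 and 770. CD3E ran the other way, at 84.4, 53.7 and 33.2, and CD3G, CD2 and CD5 had means of 8.06, 4.48 and 7.71. The sum therefore describes LAT and not the list. The part of such cells in the results above was not tested.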
